A study of Homo sapiens with 24 samples.

Results

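The interleukin-1 (IL-1) family genes described here are 10 of the 61860 genes counted in each of 4 RNA-seq experiments on OE33 cells, a human esophageal adenocarcinoma (EAC) cell line. They were taken by name, as the genes whose Ensembl identifiers map to the ligands IL1A, IL1B, IL33 and IL36G, the receptor antagonist IL1RN, the receptors IL1R1, IL1R2, IL1RAP and IL1RL1, and the kinase IRAK2. All 10 were found, and each treated group was compared with the control group of its own experiment. The study asked how obesity and the ubiquitin ligase TRIM15 act on EAC, with the transcription factor YY2 and FOXRED1, a mitochondrial protein, placed after TRIM15.

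In the xenograft experiment, OE33 cells were grown under the skin of BALB/c-nu nude mice, males 4 weeks old at purchase, on a high-fat diet (HFD, 35% fat) or a normal diet (ND, 4.3% fat). The mice had been on the diet for 8 weeks before injection and the tumors grew for 21 days. Mice of the HFD group were chosen by a body weight limit set from the ND group, and athymic hosts lack mature T cells but keep other host cells. In the other 3 experiments OE33 cells in culture were transfected with a plasmid for HA-tagged TRIM15 (HA-TRIM15) or an empty vector (EV) for 48 h, or with hairpin RNA plasmids against YY2 (shYY2) or FOXRED1 (shFOXRED1) or a control hairpin (shControl) for 72 h. Each of the 8 groups had 3 libraries, and all 24 are 1 cell line. The labels do not say whether the 3 libraries of a group came from separate cultures or animals, so p-values measure the spread between these libraries only.

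IL-1α and IL-1β bind the receptor IL1R1, which then recruits the accessory protein IL1RAP and signals through the adaptor MyD88 and kinases of the IRAK family to NF-κB and MAP kinases. Brakes on this step are the antagonist encoded by IL1RN, the decoy receptor IL1R2, which binds ligand without signaling, and inhibitory kinases such as IRAK3. IL-33 uses IL1RL1, also called ST2, and IL-36γ uses IL1RL2, both with IL1RAP. Epithelial cells store IL-1α and IL-33 and can release them on injury, and in tumors IL-1 signaling is known for inducing chemokines and growth factors that draw in myeloid cells.

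The members lie in 2 groups on chromosome 2 and at 3 other places (GRCh38, gene spans of GENCODE 29). The receptor genes IL1R2 (chr2:101991844-102028544), IL1R1 (chr2:102064544-102179874) and IL1RL1 (chr2:102311502-102352037) lie in this order on the plus strand. IL1RL2 (chr2:102186973-102240002), not a member, lies between IL1R1 and IL1RL1. The span of IL1RL1 overlaps that of IL18R1 (chr2:102311529-102398775), another receptor gene of the family on the same strand. The ligand genes IL1A (chr2:112773915-112784590) and IL1B (chr2:112829751-112836903) are on the minus strand, and IL36G (chr2:112973203-112985665) and IL1RN (chr2:113107214-113134016) on the plus strand. IL1RAP (chr3:190514051-190659750), IRAK2 (chr3:10164865-10243743) and IL33 (chr9:6215786-6257983) are elsewhere, all on the plus strand.

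Start regions of 5 members with large changes are shown so that the sequence before each gene can be read beside its values. Each window runs from 250 bases before to 50 bases after a RefSeq transcript start (build GRCh38.p14), 5′ to 3′ on the gene's own strand, and capitals mark matches to 4 motifs searched on both strands. The first, bound by AP-1 factors, was searched as the letters TGANTCA. The next, the TATA box of core promoters, was searched as TATAAA. A core bound by YY factors was searched as AANATGG, and the last motif was that of NF-κB, given by name.
IL1A, chr2:112784444-112784743, minus strand: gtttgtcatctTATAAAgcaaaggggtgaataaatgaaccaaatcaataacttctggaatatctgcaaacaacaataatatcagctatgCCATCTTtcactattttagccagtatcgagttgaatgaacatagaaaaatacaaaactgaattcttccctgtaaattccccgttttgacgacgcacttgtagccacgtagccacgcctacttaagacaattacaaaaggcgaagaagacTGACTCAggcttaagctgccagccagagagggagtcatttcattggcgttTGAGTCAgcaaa
IL1B, chr2:112836730-112837029, minus strand: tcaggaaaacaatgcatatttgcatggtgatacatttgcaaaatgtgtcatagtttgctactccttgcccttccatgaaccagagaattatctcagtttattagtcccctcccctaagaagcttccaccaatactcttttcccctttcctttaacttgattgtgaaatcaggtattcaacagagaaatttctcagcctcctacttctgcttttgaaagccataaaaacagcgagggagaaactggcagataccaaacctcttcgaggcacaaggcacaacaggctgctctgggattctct
IL1RN, chr2:113117721-113118020, plus strand: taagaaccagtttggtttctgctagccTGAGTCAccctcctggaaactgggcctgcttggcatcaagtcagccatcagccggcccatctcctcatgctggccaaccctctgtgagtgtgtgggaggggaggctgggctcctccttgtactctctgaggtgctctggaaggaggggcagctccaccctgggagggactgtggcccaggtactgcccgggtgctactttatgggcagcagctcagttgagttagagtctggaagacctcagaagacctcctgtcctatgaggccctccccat
IL1R2, chr2:101991710-101992009, plus strand: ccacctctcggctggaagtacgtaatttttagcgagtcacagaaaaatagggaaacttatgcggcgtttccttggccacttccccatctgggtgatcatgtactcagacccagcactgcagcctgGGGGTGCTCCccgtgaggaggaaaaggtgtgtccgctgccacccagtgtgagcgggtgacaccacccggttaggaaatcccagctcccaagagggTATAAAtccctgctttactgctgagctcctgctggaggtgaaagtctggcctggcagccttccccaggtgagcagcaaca
IL1RL1 upstream start, chr2:102311313-102311612, plus strand: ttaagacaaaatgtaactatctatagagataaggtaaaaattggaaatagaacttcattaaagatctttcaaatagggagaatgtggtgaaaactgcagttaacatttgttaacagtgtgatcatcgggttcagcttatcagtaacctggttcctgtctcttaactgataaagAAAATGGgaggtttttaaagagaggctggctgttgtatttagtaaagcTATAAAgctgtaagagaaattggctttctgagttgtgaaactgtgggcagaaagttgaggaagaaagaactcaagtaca
IL1RL1 downstream start, chr2:102337007-102337306, plus strand: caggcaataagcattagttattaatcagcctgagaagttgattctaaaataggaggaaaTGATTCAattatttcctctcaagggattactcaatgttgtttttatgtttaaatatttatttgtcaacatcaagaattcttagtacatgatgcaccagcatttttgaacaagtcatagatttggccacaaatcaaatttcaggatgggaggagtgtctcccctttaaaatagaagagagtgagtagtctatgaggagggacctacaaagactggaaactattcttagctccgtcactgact

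All 10 members had at least 1 window, 19 windows in all, some of which overlap. The IL1A window held AP-1 letters at -12 and 39 relative to the start, a YY core at -161 and TATA letters at -239. The IL1RN window shown held AP-1 letters at -223, and the downstream IL1RL1 window at -191. Of the IL1RN windows not shown, chr2:113127348-113127647 held TATA letters at -32 and -30 and chr2:113127239-113127538 held no match. The upstream IL1RL1 window held TATA letters at -29 and a YY core at -77, and the IL1R2 window shown TATA letters at -30 and an NF-κB match at -125. The other IL1R2 window, chr2:101998711-101999010, held no match. The IL1B window held none of the 4. AP-1 letters stood in 4 of the 19 member windows against 7.71% of 35116 windows of all genes, TATA letters in 5 (11.5% of all), the YY core in 2 (15.6% of all) and NF-κB in 1 (11.3% of all). The AP-1 count includes 2 overlapping IL1A windows that hold the same sites. A match describes the letters only.

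Library totals ran from 14299807 to 45994561 counts. The targeted genes followed their labels: TRIM15 had 111 to 181 counts in the HA-TRIM15 libraries and 0 in every EV library, YY2 had 11 to 12 counts in shYY2 and 40 to 46 in shControl, and FOXRED1 had 129 to 207 counts in shFOXRED1 and 254 to 322 in shControl. TRIM15 also had 12 to 24 counts in the HFD xenografts and 0 to 1 in ND. FOXRED1 had 268 to 330 counts in shYY2 and 544 to 647 in the shControl group of that experiment. Its RNA was thus lower in both knockdowns. The 8 epithelial markers, among them EPCAM, KRT8 and KRT19, had at least 247 counts in every library, as the label of the line says. Of the markers of other cells, the pan-leukocyte gene PTPRC had at most 3 counts in any library, TYROBP, CD68 and CD163 at most 4, and the endothelial list summed to less than 1 CPM (counts scaled for library depth by edgeR's cpm function). Others were present in every library, ITGAM at 95 to 556 counts, CD14 at 23 to 231 and the fibroblast marker COL1A1 at 169 to 1589. The rest of the fibroblast list was low, with ACTA2 at 13 to 93 counts, COL1A2 at most 24, COL3A1 at most 10 and PDGFRB at most 7. PDGFRA, DCN and LUM had at most 3. All markers are human genes, so they are no measure of the mouse host cells in the xenografts. In bulk RNA, fewer cells expressing a gene and less RNA of it per cell cannot be told apart.

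The shares of members that changed have to be read against how many genes changed at all. A gene was called changed when its p from the quasi-likelihood test of edgeR, adjusted by Benjamini and Hochberg's method over every gene tested in that experiment, was under 0.05. HFD against ND called 7 of 9 tested members (6 higher, 1 lower), where 49.5% of 17012 genes were called (25.6% higher and 23.9% lower). Among the 6 higher is IL36G, which passed the filter on low counts only through the HFD libraries. HA-TRIM15 against EV called 4 of 8 members, all higher, against 22.1% of 15745 genes (12.5% higher and 9.53% lower). shYY2 against shControl called all 8 tested members (1 higher, 7 lower), with 75% of 16006 genes called (36.8% higher and 38.1% lower), so a called member was the usual case there. shFOXRED1 against shControl called 7 of 8 members (2 higher, 5 lower), against 36.6% of 15730 genes (16.8% higher and 19.7% lower). The median log2 fold change of the tested members was 0.43, 0.20, -0.50 and -0.999 in that order, while the median over all tested genes lay between -0.01 and 0.01 in all 4. The 3 treated and 3 control libraries did not overlap for 7 of 9, 5 of 8, 8 of 8 and 7 of 8 members, against 56.2%, 37.7%, 76.3% and 46.7% of all tested genes. The members were chosen with earlier results of these data known, so their shares and medians are no independent support.

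**Figure D1:**
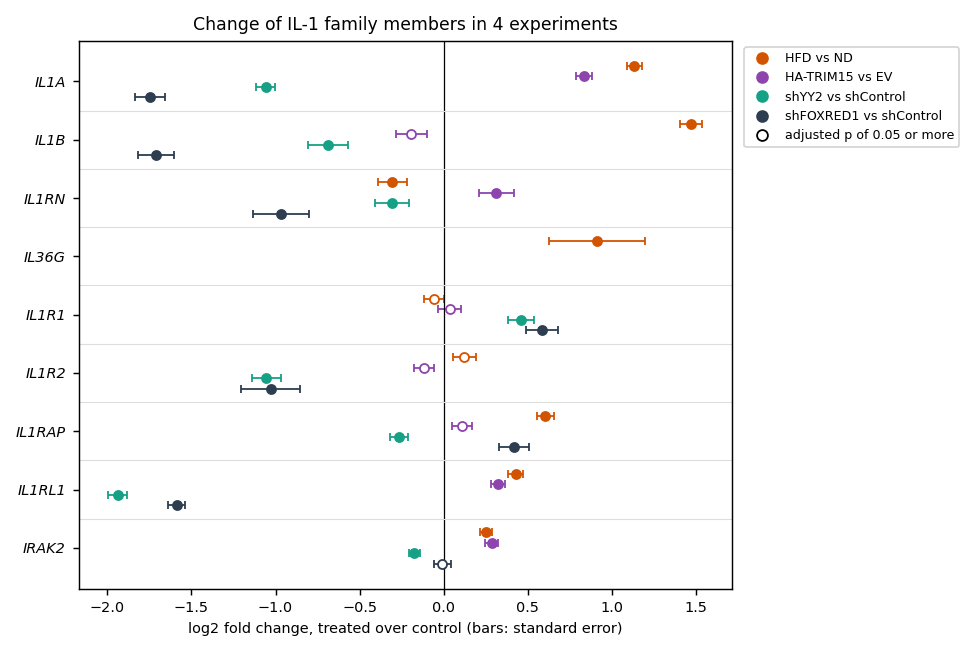
Fitted log2 fold change of the 9 tested members (rows), treated over control, in the 4 experiments (colors), with bars for the standard error and open symbols where the adjusted p was 0.05 or more. IL1A is right of 0 in the xenografts and HA-TRIM15 and left of 0 in both knockdowns, while IL1R1 is right of 0 in both knockdowns.

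IL1A, the precursor of IL-1α, changed in all 4 experiments, up with HFD and HA-TRIM15 and down with both knockdowns. In the xenografts, IL1A stood at 101, 105 and 105 CPM under HFD and at 49.8, 44.6 and 48.2 CPM under ND. The HFD libraries were all above the ND libraries, a 2.19-fold difference (log2 fold change 1.13, SE 0.044, edgeR adjusted p = 7.23e-12). HA-TRIM15 libraries held 57.3, 59.7 and 61.9 CPM and EV libraries 32.9, 33.3 and 33.9 CPM. Again no library overlapped, and the log2 fold change was 0.83, SE 0.046, edgeR adjusted p = 1.11e-08. With shYY2 IL1A was at 21.9, 21.1 and 19.7 CPM, against 44.3, 41.6 and 44.2 CPM in its shControl. With shFOXRED1 it was at 14.9, 15.9 and 17.0 CPM, against 49.95, 51.3 and 59.3 CPM. Both knockdown groups lay wholly below their controls. The log2 fold change was -1.06 for shYY2 (SE 0.056, edgeR adjusted p = 6.81e-11) and -1.75 for shFOXRED1 (SE 0.090, edgeR adjusted p = 3.41e-10). No IL1A call was lost under any alternative of the processing.

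IL1B, the precursor of the secreted IL-1β, followed IL1A in 3 experiments and not with HA-TRIM15. HFD xenografts held 31.4, 32.6 and 33.7 CPM and ND xenografts 11.3, 11.3 and 13.1 CPM. This was the largest change of a member in the xenografts, 2.77-fold without overlap (log2 fold change 1.47, SE 0.066, edgeR adjusted p = 3.90e-11). With HA-TRIM15 IL1B was at 8.62, 9.62 and 8.22 CPM and with EV at 10.6, 9.97 and 9.74 CPM. All 3 HA-TRIM15 libraries lay below the EV libraries, but by less than the test could call (log2 fold change -0.19, SE 0.093, edgeR adjusted p = 0.154). shYY2 libraries held 5.17, 6.48 and 5.19 CPM and their controls 8.18, 9.15 and 9.78 CPM, a fall of every library below the controls (log2 fold change -0.69, SE 0.12, edgeR adjusted p = 6.96e-05). The shFOXRED1 libraries held 7.10, 7.41 and 7.25 CPM and their controls 24.5, 23.0 and 23.7 CPM. The groups were far apart, with a log2 fold change of -1.71, SE 0.11, edgeR adjusted p = 2.16e-09.

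IL1RN encodes the secreted receptor antagonist and intracellular forms of it, and it did not move with the agonists in the xenografts. HFD libraries held 8.86, 9.07 and 10.5 CPM and ND libraries 12.1, 12.4 and 10.8 CPM, so the antagonist was lower under HFD in every library (log2 fold change -0.30, SE 0.088, edgeR adjusted p = 0.00892). HA-TRIM15 libraries held 10.9, 8.39 and 9.67 CPM and EV libraries 7.65, 7.51 and 8.28 CPM. The HA-TRIM15 values were all higher (log2 fold change 0.31, SE 0.11, edgeR adjusted p = 0.0463), but this call was close to the threshold. Without HA-TRIM15 replicate 1 the log2 fold change was 0.21 and the adjusted p 0.166, without HA-TRIM15 replicate 3 the adjusted p was 0.0848, and without EV replicates 1, 2 or 3 it was 0.127, 0.143 and 0.0761. DESeq2 gave an adjusted p of 0.0934, and edgeR without a filter on low counts 0.0553.

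In the knockdowns IL1RN fell with the agonists. shYY2 libraries held 7.97, 6.90 and 8.55 CPM and their controls 9.61, 9.33 and 10.0 CPM. The log2 fold change was -0.31, SE 0.10, edgeR adjusted p = 0.0128, which was lost without shYY2 replicate 2 (0.0732) and with DESeq2 (0.0678). shFOXRED1 libraries held 3.11, 3.95 and 3.76 CPM and their controls 6.99, 6.83 and 7.34 CPM. The groups were well apart, at a log2 fold change of -0.97, SE 0.17, edgeR adjusted p = 0.000187.

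IL36G, which encodes the epithelial ligand IL-36γ, was rare, and only the xenograft libraries held enough counts for the test. It entered the test through the HFD libraries, since the filter on low counts asked for a level that not all ND libraries reached. Its call is therefore no independent support for a rise. HFD xenografts had 17, 11 and 32 counts and ND xenografts 9, 17 and 12 counts, which came to 0.746, 0.601 and 0.840 CPM with HFD and 0.337, 0.356 and 0.558 CPM with ND. The HFD values were all above the ND values after scaling for depth (log2 fold change 0.91, SE 0.29, edgeR adjusted p = 0.0145). At this depth the call rested on single libraries: the adjusted p was 0.1002 without HFD replicate 3, 0.0502 without ND replicate 1 and 0.0779 without ND replicate 2, and DESeq2 gave 0.128. In culture IL36G had 3, 6 and 5 counts with HA-TRIM15 and 2, 2 and 4 with EV, and 0 to 9 counts in the knockdown experiments.

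IL33, the alarmin ligand of IL1RL1, was at or near the floor everywhere. It had 0 to 5 counts in each of the 24 libraries and was tested in no experiment. The largest count, 5, was in an shYY2 library whose group mates had 1 and 2. A count of 0 allows up to 3 counts, so a difference in IL33 was not detectable at this depth.

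**Figure D2:**
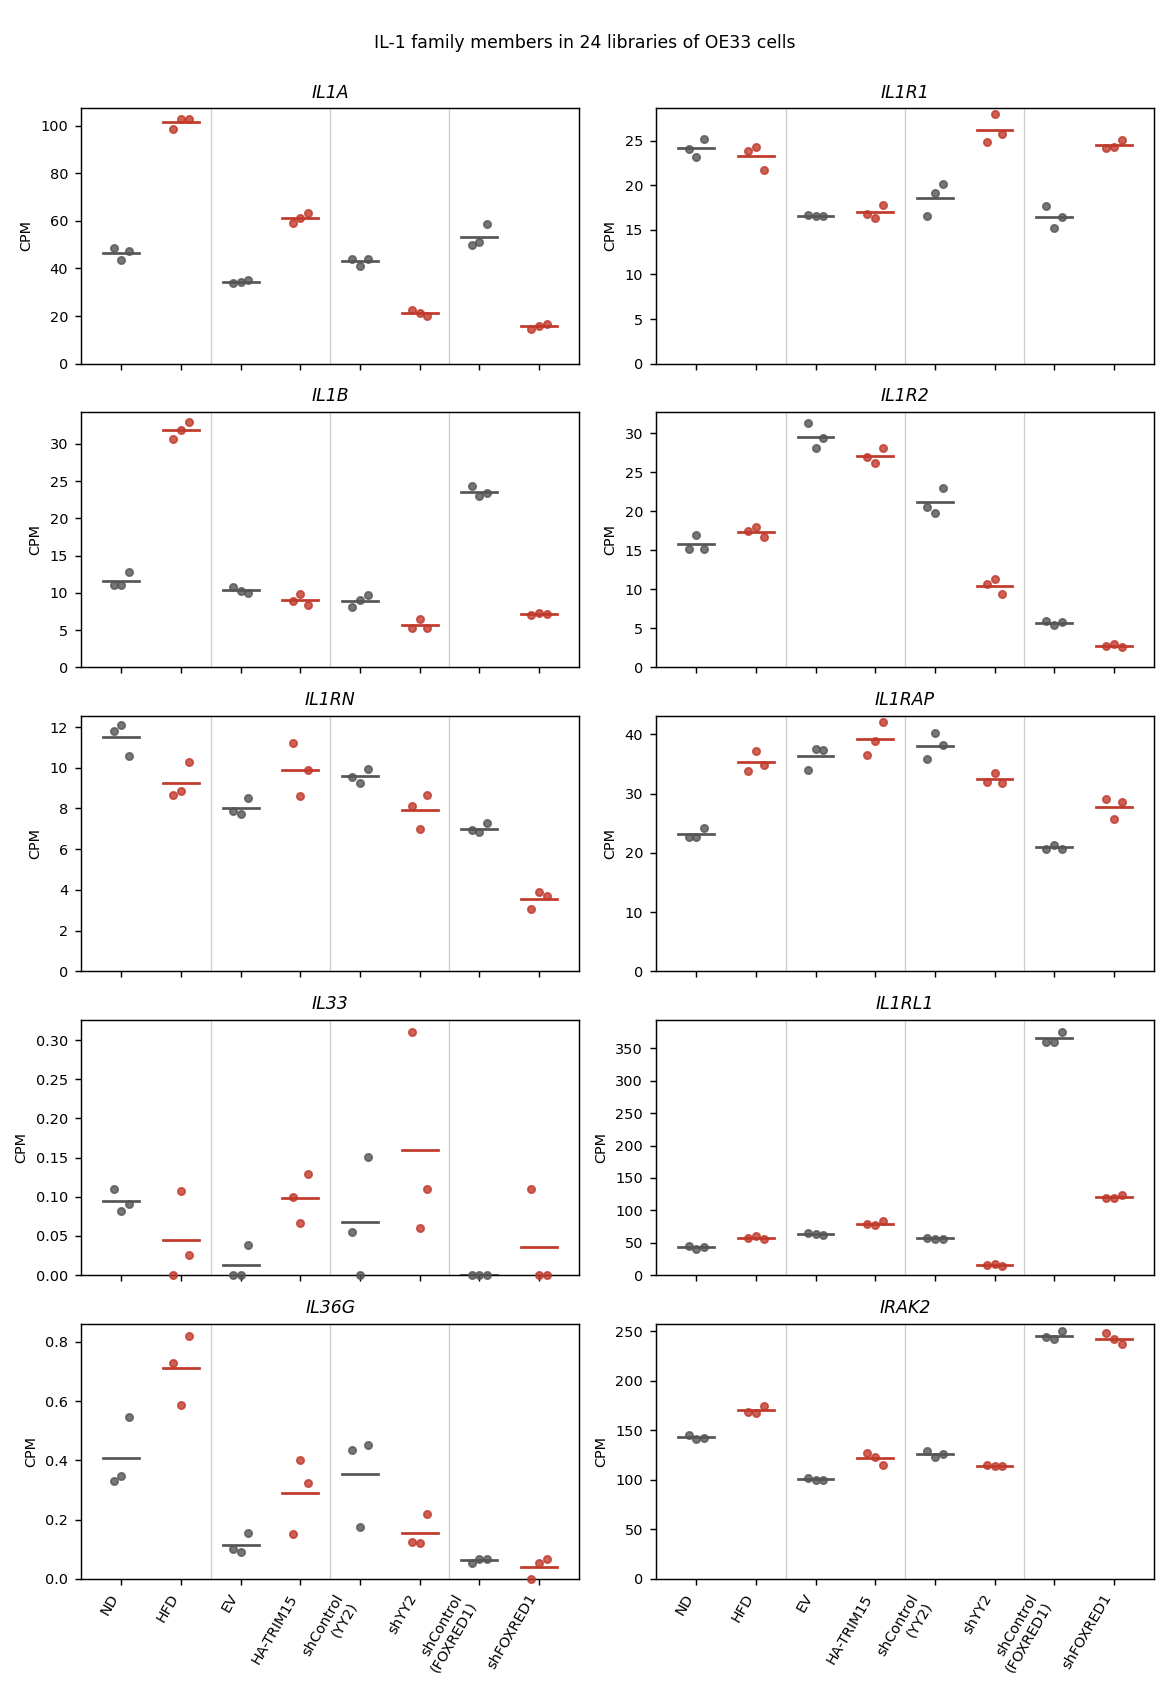
CPM of each member (linear axes from 0) in 24 libraries, scaled together, for the 4 control groups (gray) and the 4 treated groups (red); points are libraries and bars group means. IL1B is high in the HFD xenografts and the shControl group of the FOXRED1 experiment, and IL1RL1 is highest in that same shControl group.

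IL1R1, the signaling receptor of both IL-1 forms, did not pass the test with HFD or HA-TRIM15 and rose in both knockdowns. HFD xenografts, at 24.4, 24.8 and 22.3 CPM, and ND xenografts, at 24.5, 23.8 and 25.8 CPM, overlapped (log2 fold change -0.06, SE 0.060). HA-TRIM15 libraries, at 16.3, 16.0 and 17.3 CPM, and EV libraries, at 16.2, 16.1 and 16.1 CPM, overlapped too (log2 fold change 0.04, SE 0.069). Their adjusted p-values were 0.456 and 0.763 in edgeR. With shYY2 the receptor was at 24.3, 27.7 and 25.5 CPM against 16.6, 19.3 and 20.3 CPM, every library above the controls (log2 fold change 0.46, SE 0.077, edgeR adjusted p = 5.33e-05). With shFOXRED1 it was at 24.5, 24.6 and 25.5 CPM against 17.8, 15.2 and 16.6 CPM, again apart (log2 fold change 0.58, SE 0.096, edgeR adjusted p = 0.000127).

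IL1R2, the decoy receptor, moved opposite to IL1R1 in the knockdowns. HFD libraries held 17.8, 18.4 and 17.2 CPM and ND libraries 15.6, 17.4 and 15.6 CPM, a narrow overlap (log2 fold change 0.12, SE 0.068, edgeR adjusted p = 0.151). Without ND replicate 2, its highest control, the adjusted p was 0.0427. HA-TRIM15 libraries held 26.3, 25.6 and 27.4 CPM and EV libraries 30.4, 27.3 and 28.5 CPM, overlapping in 1 library (log2 fold change -0.12, SE 0.059, edgeR adjusted p = 0.169). shYY2 libraries held 10.5, 11.2 and 9.25 CPM and their controls 20.8, 20.0 and 23.2 CPM, with a log2 fold change of -1.05, SE 0.087, edgeR adjusted p = 1.86e-08. shFOXRED1 libraries held 2.77, 2.97 and 2.67 CPM and their controls 5.94, 5.44 and 5.84 CPM, with a log2 fold change of -1.03, SE 0.18, edgeR adjusted p = 0.000201. The decoy was thus at about 0.482 and 0.490 of its control level, with no overlap in either.

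IL1RAP, the co-receptor shared by the IL-1, IL-33 and IL-36 receptors, had the largest change of the 4 receptor members in the xenografts. It stood at 34.6, 37.9 and 35.8 CPM under HFD and 23.2, 23.4 and 24.7 CPM under ND, all HFD libraries being higher (log2 fold change 0.60, SE 0.053, edgeR adjusted p = 8.55e-08). HA-TRIM15 libraries, at 35.5, 38.0 and 41.0 CPM, overlapped EV libraries, at 33.1, 36.4 and 36.2 CPM (log2 fold change 0.11, SE 0.060, edgeR adjusted p = 0.223). Without HA-TRIM15 replicate 1, its lowest treated library, the log2 fold change was 0.16 and the adjusted p 0.0351. The knockdowns moved IL1RAP in opposite directions. shYY2 libraries were at 31.4, 33.0 and 31.4 CPM, below the controls at 36.0, 40.7 and 38.5 CPM (log2 fold change -0.27, SE 0.054, edgeR adjusted p = 0.000378). shFOXRED1 libraries were at 29.5, 26.0 and 28.9 CPM, above the controls at 20.9, 21.4 and 20.9 CPM (log2 fold change 0.42, SE 0.089, edgeR adjusted p = 0.0013). The difference between these knockdown effects was itself past the threshold (-0.64, SE 0.093, edgeR adjusted p = 7.51e-07).

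IL1RL1, which encodes the IL-33 receptor ST2 and its soluble decoy form, had the largest fall of any member with shYY2. HFD xenografts held 58.2, 61.5 and 56.6 CPM and ND xenografts 45.1, 42.1 and 43.8 CPM, without overlap (log2 fold change 0.43, SE 0.046, edgeR adjusted p = 9.88e-07). HA-TRIM15 libraries held 75.9, 75.1 and 81.7 CPM and EV libraries 63.2, 62.0 and 60.8 CPM, also without overlap (log2 fold change 0.32, SE 0.043, edgeR adjusted p = 9.78e-05). The receptor of a ligand at the floor thus rose in both. With shYY2 it stood at 14.7, 16.1 and 13.8 CPM against 57.5, 56.8 and 56.4 CPM, at 0.261 of the control level (log2 fold change -1.94, SE 0.057, edgeR adjusted p = 6.46e-14). With shFOXRED1 it stood at 120.2, 121 and 126 CPM against 362, 361 and 379.7 CPM (log2 fold change -1.59, SE 0.052, edgeR adjusted p = 1.48e-12). Even after this fall the shFOXRED1 libraries were above the libraries of all the groups outside the FOXRED1 experiment. Gene counts do not separate the receptor from its soluble form.

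IRAK2, a kinase that sustains MyD88 signaling, had called changes of at most 0.28 on the log2 scale. It stood at 173, 171 and 179 CPM under HFD and 149, 145 and 146 CPM under ND (log2 fold change 0.25, SE 0.035, edgeR adjusted p = 1.45e-05). With HA-TRIM15 it stood at 123, 120.5 and 112 CPM and with EV at 99.1, 97.3 and 96.6 CPM (log2 fold change 0.28, SE 0.040, edgeR adjusted p = 0.000165). Neither pair of groups overlapped. shYY2 libraries were at 112, 113 and 113 CPM and their controls at 129.8, 125 and 127 CPM, a small fall in every library (log2 fold change -0.17, SE 0.030, edgeR adjusted p = 8.18e-05). shFOXRED1 libraries were at 252, 245 and 241 CPM and overlapped the controls at 246, 243 and 253 CPM (log2 fold change -0.01, SE 0.049, edgeR adjusted p = 0.923).

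The balance of agonists to antagonist was followed as a ratio of counts within each library, a measure chosen after these values had been seen. IL1A and IL1B counts together were 14.9, 15.2 and 13.2 times the IL1RN counts under HFD and 5.06, 4.50 and 5.68 times under ND. The ratio was 2.85-fold higher with HFD, in all 3 libraries. HA-TRIM15 libraries had ratios of 6.04, 8.27 and 7.25 and EV libraries 5.68, 5.77 and 5.28, so the lowest HA-TRIM15 library was just above the highest EV library. shYY2 libraries had 3.40, 3.99 and 2.91 against 5.46, 5.44 and 5.38, and shFOXRED1 libraries 7.09, 5.90 and 6.45 against 10.7, 10.9 and 11.3. The ratio was thus lower in every knockdown library than in its controls, and the fitted fall of IL1RN was smaller than that of IL1A or IL1B. In each experiment the exact permutation test gave a two-sided p of 0.1, the smallest that 3 against 3 libraries allow, so none of these can pass 0.05. IL1B over IL1RN alone went the other way with HA-TRIM15, at ratios of 0.790, 1.15 and 0.850 against 1.38, 1.33 and 1.18 (0.710-fold, exact permutation p = 0.1). That ratio overlapped its controls with shYY2 (0.769-fold, exact permutation p = 0.2), and was 3.40-fold with HFD and 0.601-fold with shFOXRED1 (exact permutation p = 0.1 in both).

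The decoy to receptor ratio, IL1R2 over IL1R1 counts, was lower in every knockdown library than in any control of its experiment. shYY2 libraries had 0.430, 0.406 and 0.363 against 1.25, 1.04 and 1.14 in their controls. shFOXRED1 libraries had 0.113, 0.121 and 0.105 against 0.334, 0.358 and 0.351. The treated-minus-control difference in mean log2 ratio was -1.51 with shYY2, -1.62 with shFOXRED1, 0.19 with HFD and -0.16 with HA-TRIM15. The exact two-sided p was 0.1 in all 4, again the smallest possible. The IL1A to IL1B ratio was 2.05-fold higher with HA-TRIM15 (exact p = 0.1), and with shFOXRED1 the agonists kept nearly the same ratio (0.977-fold, exact permutation p = 0.7).

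**Figure D3:**
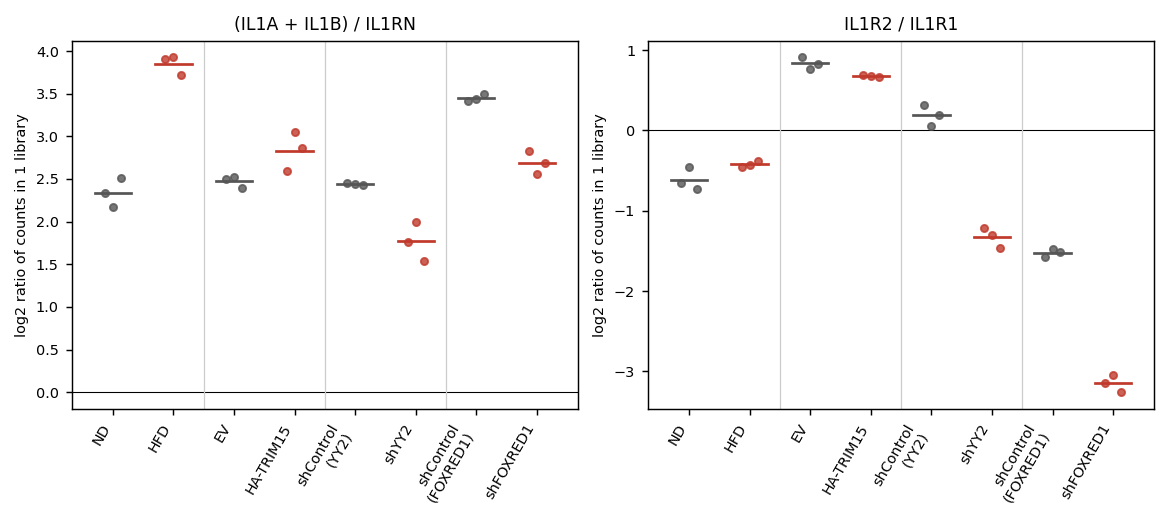
Log2 ratio of counts within each library, for IL1A plus IL1B over IL1RN (left) and IL1R2 over IL1R1 (right), in control (gray) and treated (red) groups; points are libraries and bars group means. The HFD libraries are highest on the left, with a mean of 3.85 against 2.34 in ND, and both knockdown groups sit below their controls in both panels.

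To set levels of different genes side by side, CPM scaled over all 24 libraries was divided by the exon length of each gene in kilobases. On this scale group means ran over 28.9 to 70.6 for IRAK2, 2.63 to 63.6 for IL1RL1 and 7.41 to 47.7 for IL1A, the 3 members with the highest group means. IL1B ran over 1.84 to 10.3, IL1R2 over 0.901 to 9.63, IL1R1 over 2.32 to 3.70, IL1RAP over 1.81 to 3.39 and IL1RN over 1.09 to 3.53 CPM per kilobase. The agonist IL1A was thus well above its antagonist in per-length level in all 8 groups. IL36G and IL33 stayed below 1.

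Levels were also ordered over the 8 groups, as a description, since experiment and group cannot be told apart between experiments. IL1A was highest with HFD (101 ± 2.41 CPM, SD, n = 3), then with HA-TRIM15 (61.2 ± 2.21), and lowest with shYY2 (21.2 ± 1.22) and shFOXRED1 (15.7 ± 1.04). Only ND and the shControl group of the YY2 experiment overlapped among neighbors in this order. IL1B was highest with HFD (31.8 ± 1.09) and next in the shControl group of the FOXRED1 experiment (23.6 ± 0.686). HA-TRIM15 and the shControl group of the YY2 experiment overlapped (9.05 ± 0.736 and 8.97 ± 0.796), while shYY2 was lowest (5.70 ± 0.748). IL1RN ranged from 11.5 ± 0.816 with ND to 3.56 ± 0.444 with shFOXRED1, and most neighbors in between overlapped. IL1R1 fell into a higher set of shYY2, shFOXRED1, ND and HFD (means of 23.3 to 26.2) and a lower set of the remaining 4 (16.4 to 18.6), with overlap inside each set. IL1RAP ranged from 39.1 ± 2.79 with HA-TRIM15 to 20.9 ± 0.385 in the shControl group of the FOXRED1 experiment, and the 4 highest groups overlapped in order.

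The control groups themselves differed, although all are OE33 cells. IL1RL1 was at 365 ± 9.03 CPM in the shControl group of the FOXRED1 experiment and at 56.5 ± 0.602 CPM in that of the YY2 experiment, 6.47-fold apart. IL1B was 2.63-fold and IRAK2 1.95-fold higher in the former, and IL1R2 3.71-fold and IL1RAP 1.82-fold higher in the latter. What sets these controls apart was not tested. Each knockdown effect is therefore relative to its own starting level, and IL1R2 after YY2 knockdown (10.5 ± 1.02) was still above its level in the control cells of the FOXRED1 experiment (5.71 ± 0.247).

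Whether effects differed between experiments was tested on all 24 libraries, as the difference of the treated-minus-control changes. Between shYY2 and shFOXRED1, 6 of 9 members differed, 3 of them higher and 3 lower, where 55.5% of 17980 genes did (28.8% higher and 26.7% lower). IL1A and IL1B fell further with shFOXRED1, with a log2 difference of 0.73 for IL1A (edgeR adjusted p = 1.34e-07) and 1.06 for IL1B (1.29e-07). Between HFD and HA-TRIM15, 4 of 9 members differed, 3 higher and 1 lower, against 28.4% of all genes (16% higher and 12.3% lower). The difference was 1.66 for IL1B (edgeR adjusted p = 3.34e-12) and -0.61 for IL1RN (0.00128).

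The other genes of the pathway were described by a list of 60 genes with the members left out. In the xenografts 29 of 53 tested rose and 7 fell, with HA-TRIM15 23 of 51 rose and 4 fell, with shYY2 18 of 52 rose and 28 fell, and with shFOXRED1 15 of 50 rose and 12 fell. Called in either direction were thus 36 of 53, 27 of 51, 46 of 52 and 27 of 50, where 49.5%, 22.1%, 75% and 36.6% of all genes tested were called. The list holds 20 genes known to respond to IL-1. Of these, 17 of 19 tested rose and 1, CCL20, fell with HFD (median log2 fold change 0.76), 18 of 18 rose with HA-TRIM15 (0.65), and 2 of 18 rose and 16 fell with shYY2 (-2.02). With shFOXRED1 7 of 16 rose and 4 fell (-0.05), so the response genes did not follow IL1A and IL1B there. Many other stimuli induce the same genes, and the list was made with earlier NF-κB results of these experiments known, so its counts are no independent support.

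For each experiment the pathway genes named here are those with the largest fitted changes among called genes with a mean of at least 1 CPM over its 6 libraries. In the xenografts SOD2, a mitochondrial superoxide dismutase, rose most of these, from 944 ± 17.0 to 2850.0 ± 39.6 CPM (SD, n = 3; log2 fold change 1.59, SE 0.031). The growth factor gene CSF3 followed at 1.31, SE 0.069 and IRAK3, the inhibitory kinase, at 1.31, SE 0.089. MAP2K6, a p38 kinase kinase, fell by 1.16 and TOLLIP, an adaptor that restrains IRAK1, by 0.40 on the log2 scale. GSDMD, the pore protein through which IL-1β leaves cells, had a log2 fold change of -1.15, SE 0.29, at 6.72 ± 4.96 CPM with HFD and 13.4 ± 3.05 CPM with ND (SD, n = 3), a wide spread. The edgeR adjusted p-values of these 6 ran from 7.25e-15 to 0.00370.

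With HA-TRIM15 the chemokine genes CCL20 (1.76, SE 0.18) and CXCL8 (1.56, SE 0.044) and the cytokine gene IL6 (1.74, SE 0.19) had the largest log2 fold changes. CXCL8, a neutrophil attractant, went from 25.5 ± 0.480 to 75.5 ± 1.72 CPM (SD, n = 3). The falls were small, at -0.31 for TAB1, an activator of TAK1, -0.22 for IL18BP, which binds IL-18, and -0.17 for IKBKB, an IκB kinase. Their edgeR adjusted p-values were 0.000919, 0.0461 and 0.0162.

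With shYY2 the same CXCL8 dropped from 103 ± 4.80 to 8.52 ± 0.317 CPM (SD, n = 3; log2 fold change -3.59, SE 0.058, edgeR adjusted p = 1.29e-16). CSF3 (-3.45) and CSF2 (-3.29), which encode myeloid growth factors, fell nearly as far. The largest rises were in PELI2, an IRAK-binding ubiquitin ligase (2.71, SE 0.26), in UBE2V1, a partner in making ubiquitin chains (1.14, SE 0.11), and in CASP1, the protease that cuts pro-IL-1β (0.91, SE 0.094). PELI2 was at 3.35 ± 0.530 CPM with shYY2 and 0.510 ± 0.205 CPM in the controls (SD, n = 3). It entered the test through the shYY2 libraries, since not all controls reached the level that the filter on low counts asked for. Its call is therefore no independent support for a rise. CASP1 rose with shFOXRED1 too (0.60, SE 0.16, edgeR adjusted p = 0.00671). There MMP1, a collagenase, fell from 215 ± 8.55 to 34.4 ± 1.12 CPM (SD, n = 3; log2 fold change -2.64, SE 0.063, edgeR adjusted p = 1.67e-14). CSF2 (-1.67) and IL18 (-1.02), an IL-1 family cytokine itself, also fell, while PTGS2, which makes prostaglandins (0.52), and ZC3H12A, an RNase that degrades cytokine mRNA (0.50), rose. CSF3, below the mean of 1 CPM in this experiment and added here after its values were seen, rose further there (log2 fold change 1.99, SE 0.44, edgeR adjusted p = 0.00167), from 0.333 ± 0.130 to 1.35 ± 0.348 CPM (SD, n = 3). It passed the filter on low counts only through the shFOXRED1 libraries, so its call is no independent support for a rise.

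**Figure D4:**
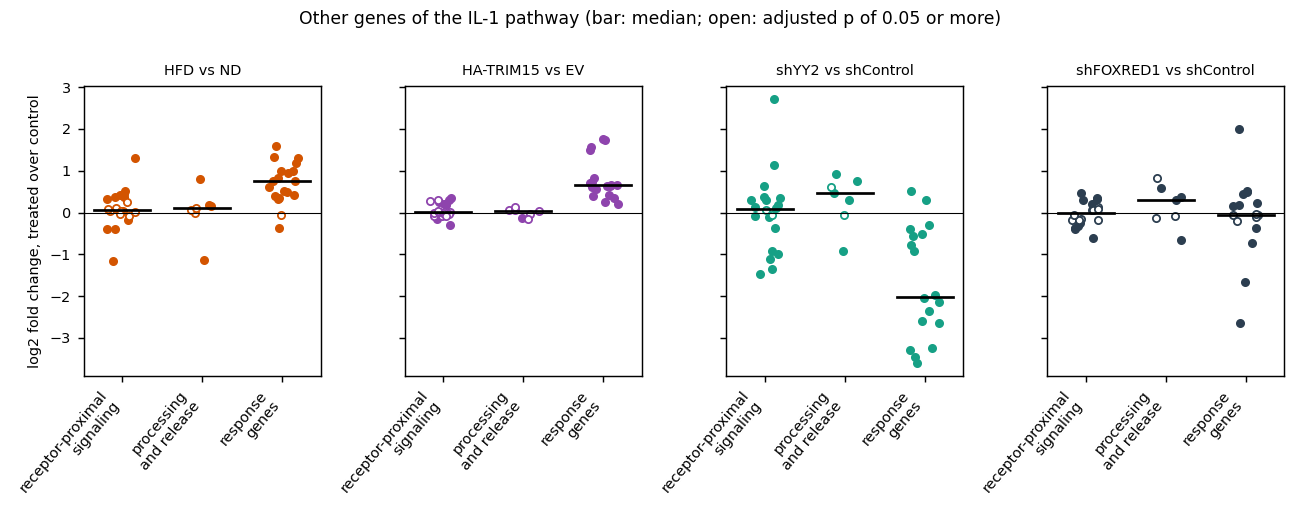
Fitted log2 fold change of the tested genes of 3 classes of the pathway list in the 4 experiments, each point a gene, with a bar for the median and open points where the adjusted p was 0.05 or more. The response genes have medians of 0.76 and 0.65 in the left panels and -2.02 with shYY2, while those with shFOXRED1 scatter around 0.

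Between ligand and response, the 20 signaling genes near the receptor, such as MYD88, IRAK1 and TRAF6, moved in both directions. Their median log2 fold change was 0.06 with HFD (7 rose, 4 fell), 0.01 with HA-TRIM15 (5 rose, 2 fell of 19 tested), 0.09 with shYY2 (10 rose, 8 fell) and -0.01 with shFOXRED1 (5 rose, 5 fell). With shYY2 18 of 20 were thus called, where 75% of all genes were, and single changes were large, as in IRAK1, a kinase next to the receptor (-1.34, SE 0.030). PELI2 changed by more, but entered the test through the shYY2 libraries. Whether the 20 signaling genes moved less or more than the response genes was not tested. Of 8 genes of processing and release, 7 were tested, and with shYY2 4 of them rose and 1 fell (median 0.46). With shFOXRED1 3 rose and 1 fell (0.29), with HFD 3 rose and 1 fell (0.12), and with HA-TRIM15 none rose and 1 fell (0.04). Of all genes tested, 49.5% were called with HFD, 22.1% with HA-TRIM15, 75% with shYY2 and 36.6% with shFOXRED1. Whether any class of this paragraph differed from these shares was not tested. The 12 other ligands, receptors and binding proteins of the family gave 2 rises and 1 fall with HFD, and 7 of the 12 were tested. Of the 2 other ligands tested, 1 rose and 1 fell with shYY2 and 1 fell with shFOXRED1. Of the 5 receptors and binding proteins tested, 1 rose and 2 fell with shYY2, and 1 fell with each of HA-TRIM15 and shFOXRED1.

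Markers of other cells were read beside the IL-1 genes. All are human genes, while the host cells of the xenografts are mouse cells, so the sums do not measure infiltration by host cells. In the xenografts the 11 leukocyte markers summed to 15.3 to 15.8 CPM with HFD and 16.1 to 17.4 CPM with ND. ITGAM and CD14 made up most of that sum. Of the 3 leukocyte markers tested there, S100A8 is a calcium-binding protein gene of neutrophils that epithelia also express. S100A8 was higher, with 9 to 23 counts under HFD and 4 to 5 under ND (log2 fold change 2.10, SE 0.39, edgeR adjusted p = 0.00028). It passed the filter on low counts only through the HFD libraries, so its call is no independent support for a rise. ITGAM was lower (-0.32, SE 0.079, edgeR adjusted p = 0.00331) and CD14 did not pass (0.18, SE 0.11, edgeR adjusted p = 0.198). The 8 fibroblast markers summed to 25.4 to 29.2 CPM with HFD and 32.8 to 35.4 CPM with ND, most of it COL1A1. That sum also moved in culture, to 44.7 to 46.6 CPM with shYY2 against 11.7 to 12.8 CPM, and to 39.6 to 42.5 CPM with shFOXRED1 against 26.2 to 26.8 CPM. With HA-TRIM15 and EV it was 12.2 to 12.7 and 13.7 to 14.8 CPM, and the leukocyte sum 9.42 to 10.2 and 8.83 to 8.95 CPM. The leukocyte sum was 10.0 to 11.0 CPM with shYY2 against 14.4 to 15.8 CPM, and 21.6 to 24.6 CPM with shFOXRED1 against 24.8 to 26.5 CPM. The part of mouse reads or of these markers in the IL-1 results was not tested.

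The genes whose levels ran most like IL1A were sought by Pearson correlation of log2 CPM over the 24 libraries, centered on the mean of each experiment, among 14518 other genes. The libraries share experiments and treatments, so these values only describe. Among those that came first for IL1A were LACC1 (r = 0.977), CD274 (0.969), SEPTIN2 (0.966) and BIRC3 (0.965). These 4 shared its signs, with CD274, the checkpoint ligand PD-L1, at log2 fold changes of 0.34, 0.37, -0.30 and -0.70 with HFD, HA-TRIM15, shYY2 and shFOXRED1. For IL1B they were SLC25A3 (0.969), OPA1 (0.966), ANXA3 (0.966), NES (0.962) and CD44 (0.961). NES, an intermediate filament gene, went by 0.96, -0.28, -0.23 and -1.23 on the log2 scale.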

How the data were processed

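Paired-end RNA-seq was run on 24 libraries of OE33 cells, with 3 libraries in each of 8 groups. The authors deposited raw counts per Ensembl gene, 1 table for each experiment, and the values are whole numbers that sum to a different total in each library. The submitters' processing notes name the builds hg38 and mm10. The aligner, the counter, the annotation, the strand setting and the treatment of mouse reads in the xenografts are not given in the sources used here. The labels name a directional library kit. No replicates were pooled in the deposited counts, and no 2 libraries were copies of each other (chi-square per gene of 1.47 to 7.94 over 24 pairs).

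Genes were named from the reference tables, 61843 of 61860. Each experiment was fitted alone with edgeR 4.0.16 (R 4.3.3): filterByExpr with a minimum count of 10 and a minimum total of 15, TMM scaling, the quasi-likelihood test and Benjamini-Hochberg adjustment over all genes tested, called at 0.05. CPM were computed by edgeR after TMM scaling. Differences between effects came from 1 fit to all 24 libraries. Scripts were tested on simulated data. Alternatives were DESeq2 (1.42.0) size factors and its Wald test, no filter or at least 10 counts in every library, calls that also change by 1.5-fold or more, the joint fit, the replicate number as a block and leaving out each library. Pathway genes were named as the 3 largest changes in each direction with a mean of at least 1 CPM. The 5 genes most correlated with IL1A and with IL1B were to be named, and 1 of them is not reported here. The members and lists were chosen with earlier results of these data known.

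Replicate numbers are shared between groups in the labels, but no source ties a number to a shared animal, batch or day. Over all tested genes no experiment had all 3 same-numbered pairs above a correlation of 0.1, so the fits were not paired.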

Additional observations from a re-analysis of the deposited data

Results flagged for a closer look

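The changes of 6 of 9 tested members differed between the 2 knockdowns by the test of the difference itself. The test was edgeR's quasi-likelihood fit to 24 libraries, in which 55.5% of 17980 genes differed. Written as the shYY2 change minus the shFOXRED1 change on the log2 scale, the difference was 0.733 for IL1A (adjusted p = 1.34e-07), 1.06 for IL1B (1.29e-07) and 0.705 for IL1RN (0.000857), all 3 having fallen further with shFOXRED1. It was -0.639 for IL1RAP (7.51e-07), which fell with shYY2 and rose with shFOXRED1, and -0.306 for IL1RL1 (0.000614), which fell further with shYY2. For IRAK2 it was -0.124 (0.0387), a call that was lost without a filter on low counts (adjusted p = 0.0926) and without any 1 of 12 libraries, with adjusted p-values of 0.0515 to 0.0914. These were HFD replicate 1, EV replicates 2 and 3, shYY2 replicates 1, 2 and 3, replicates 1 and 3 of its shControl, shFOXRED1 replicates 1 and 2, and replicates 1 and 2 of its shControl. The knockdowns started from control groups with unlike levels of several of these genes, and the part of that in the differences was not tested.

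Between the xenografts and HA-TRIM15, the HFD change minus the HA-TRIM15 change was 1.66 for IL1B (adjusted p = 3.34e-12), which rose in the xenografts and did not pass the test with HA-TRIM15. It was 0.302 for IL1A (0.00335), which rose in both, -0.612 for IL1RN (0.00128) and 0.502 for IL1RAP (2.61e-05). In the same test 28.4% of 17980 genes differed. Tumors in mice and cells in culture differ in more than the diet and the plasmid, and these cannot be told apart.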

How the results depend on the processing

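Of 8 to 9 tested members, 6 of 9 with HFD, 6 of 8 with HA-TRIM15, 7 of 8 with shYY2 and 7 of 8 with shFOXRED1 kept direction and side of the threshold under every alternative run on single members, which leaves out the fold requirement that was applied to counts. When a change of 1.5-fold or more was also required, the members called were 4 with HFD, 1 with HA-TRIM15, 4 with shYY2 and 5 with shFOXRED1, and the pathway genes called 16, 12, 26 and 9 in the order HFD, HA-TRIM15, shYY2 and shFOXRED1. Leaving out 1 library at a time left 6 to 7, 3 to 4, 7 to 8 and 7 members called in that order. The replicate block left 7, 4, 8 and 7 members called, the numbers of the unblocked fits, and changed no member's call. With the replicate block 35, 28, 47 and 33 pathway genes were called, against 36, 27, 46 and 27 unblocked. Shares of all genes tested are not given for the alternatives, the fold requirement among them, so counts under them cannot be set against other genes. In the FOXRED1 experiment the more abundant genes had pair correlations of 0.317, 0.205 and 0.535, a hint from the data of paired handling. Values near 0 that were not called changed sign: IL1R1 with HFD (0.00017 without HFD replicate 3, down to -0.085 without others), IRAK2 with shFOXRED1 (0.0042 with at least 10 counts in every library, and -0.023 to 0.0072 leaving out 1 library), the IL1R2 difference between knockdowns (-0.0054 without a filter, and -0.041 to 0.10 leaving out 1 library) and the IRAK2 difference between HFD and HA-TRIM15 (0.00053 with DESeq2 size factors, 0.0074 without a filter, 0.00085 with DESeq2, and -0.062 to 0.0074 leaving out 1 library). The cause was not tested. The IL1R2 difference between HFD and HA-TRIM15 passed the threshold with DESeq2 size factors (0.28, adjusted p = 0.0350), with at least 10 counts in every library (0.0461) and without ND replicate 2 (0.0268), EV replicate 2 (0.0461), shControl replicate 3 of the YY2 experiment (0.0492) or shFOXRED1 replicate 3 (0.0484). Depth limits IL33 and IL36G.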
